A study of Mus musculus with 3 samples.

Results

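TRAV7 is a family of mouse T cell receptor α variable genes, here read in T cells that had infiltrated the sciatic nerve of mice with autoimmune neuropathy. Its members were taken as every productive TRA contig whose V gene was named TRAV7 followed by a copy number, with or without the letter D or N. That gave 376 rearrangements under 11 copy names, among them TRAV7-3 and TRAV7D-2, out of 3325 productive TRA rearrangements under 68 TRAV names. A rearrangement was 1 combination of V gene, nucleotide CDR3 and TRAJ gene within a library. TRAV7 chains were carried by 629 of the 5269 cells with a productive TRA.

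The material was CD45+ cells sorted from digested sciatic nerve of neuropathic NOD.AireGW/+ mice, which carry 1 mutant allele of Aire on the NOD background. Aire drives the display of tissue antigens in the thymus. There were 3 droplet V(D)J libraries, with 1 mouse in library 1, 1 mouse in library 2 and 2 pooled mice in library 3, all of 1 genotype and with no treatment. There was therefore no group comparison, and the values below compare the TRAV7 family with all other TRAV genes inside each library, with libraries as the replicates (n = 3). The labels gave no age or sex, and CD4, CD8 and tissue markers were not used here. The libraries held 2374, 3555 and 705 cells, and TRAV7 chains had medians of 5, 4 and 2 UMIs per contig, against 5, 3 and 3 for other TRAV chains. In library 3, 25.0% of TRAV7 contigs rested on 1 UMI. Cell barcodes found in more than 1 library numbered 10, of which 1 carried a TRAV7 chain.

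In the thymus, the α chain gene is assembled by joining a TRAV to a TRAJ segment. The TRAV genes lie upstream of the TRAJ genes on chromosome 14, and repeated rounds of joining replace the first product with more distal V and J segments. CDR1 and CDR2 are encoded by the V gene and usually contact the MHC molecule, whereas CDR3 spans the V to J junction and usually contacts the peptide. In mice, a stretch of the TRAV cluster was copied, so that many genes have D or N partners with almost the same sequence.

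In the GRCm38 annotation, which is from C57BL/6J and not NOD, 13 TRAV7 copies lie on the plus strand of chromosome 14. TRAV7-1 stands at the far end from the TRAJ genes (chr14:52654817-52655328), 1499.7 kb from TRAJ61. TRAV7D-2 follows at chr14:52683964-52684472. TRAV7-3 lies at chr14:53443249-53443839, 711.2 kb from TRAJ61, and TRAV7-6 is the nearest, at 437.7 kb. TRAV7-5 and TRAV7N-5 were not named in any productive contig. TRAV7N-5 equals TRAV7D-5 over 275 reference bases before CDR3, so its absence by name does not show that it was unused.

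The copies separate by their CDR1 and CDR2. The CDR1 sequences observed in libraries 2 and 3 are shown because they separate the family into groups of copies. Capitals mark bases that differ from TRAV7-1.
TRAV7-1 CDR1: gatcgtaattctcagtat
TRAV7N-4 CDR1: gatcgtaattTtcagtat
TRAV7-4 CDR1: gatcgtaattTtcagtaC
TRAV7-3 CDR1: gaCAgtGCttctcagtat
TRAV7D-2 CDR1: gatcgtaatGTtGaCtaC
TRAV7D-5 CDR1: gatGgtaCttctGaCAaC
TRAV7-6 CDR1: AaCAgtGCttctcagtTC
TRAV7-4 shared its CDR1 with TRAV7D-4, TRAV7-3 with TRAV7D-3, TRAV7-2 with TRAV7D-2, and TRAV7-6 with TRAV7N-6. TRAV7N-4 differed from TRAV7-1 at 1 base of this loop and TRAV7-6 at 7 of 18. CDR2 varied less, and the same rule of capitals holds.
TRAV7-1 CDR2: atcttctccaatggtgac
TRAV7-3 CDR2: atcttctccaatggtgaA
TRAV7D-2 CDR2: atcttctccaatggtgaA
TRAV7-4 CDR2: atcttctcTGatggtgac
TRAV7D-5 CDR2: atcttctcTGatggtgaA
TRAV7-6 CDR2: atAttctcTGatggCAac
TRAV7-3 and TRAV7D-2 thus had the same CDR2 and different CDR1 loops.

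The V gene also supplies the first residues of CDR3. The germline bases from the conserved cysteine codon to the end of the V segment, read from GRCm38, were as follows.
TRAV7-1: tgtgcagtgagca
TRAV7D-2: tgtgcagcaagca
TRAV7-4: tgtgcagctagtgagca
TRAV7N-4: tgtgcagttagtgagca
TRAV7-3 and TRAV7D-3 had the start of TRAV7-1, which encodes CAVS. TRAV7D-2 encodes CAAS. TRAV7-4 and TRAV7D-4 carry 4 more bases and encode CAASE, and TRAV7N-4 encodes CAVSE.

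The names could be checked against the reads in libraries 2 and 3, whose files gave the V region before CDR3 over 264 bases. Names in library 1 could not be checked in this way. Most names stood for 1 sequence, and the exceptions TRAV7-1, TRAV7D-2 and TRAV7D-5 are given below. The V regions named TRAV7-1, TRAV7D-2, TRAV7D-3 and TRAV7D-4 equalled the C57BL/6J gene in their main form. Others departed from the gene they were named after, by 1 base in TRAV7-4, 2 in TRAV7N-4, 6 in TRAV7D-5 and in TRAV7-6, 7 in TRAV7N-6 and 9 in TRAV7-3. All 67 contigs named TRAV7-3 carried the same 9 differences, and their V region stood 11 bases from that of TRAV7D-3. TRAV7-4 and TRAV7D-4 were the closest names with distinct sequences, at 2 bases. TRAV7-6 and TRAV7N-6 carried the same V region, and so did TRAV7-2 and TRAV7D-2, so neither pair can be told apart before CDR3.

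**Figure D1:**
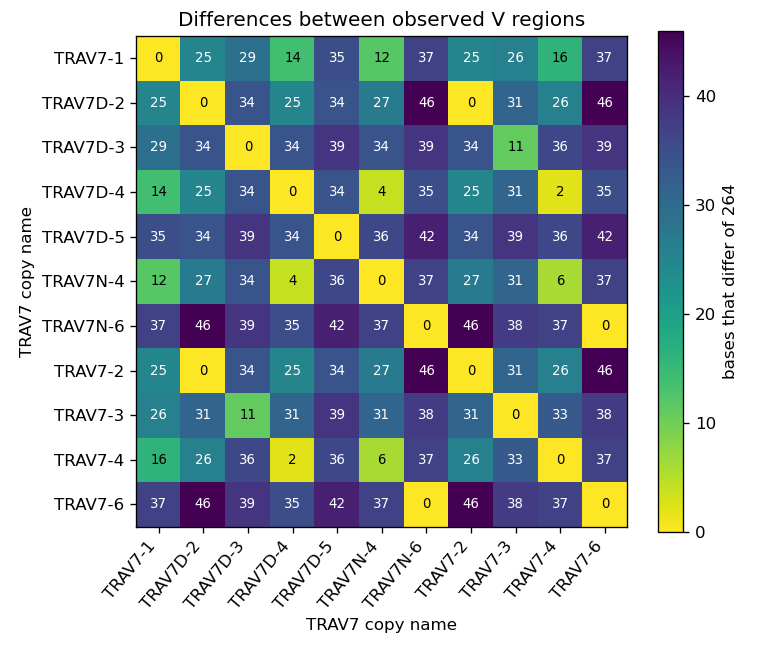
Number of bases, of 264, at which the commonest observed V regions of each pair of TRAV7 copy names differ in libraries 2 and 3, with copies on both axes in their reference order. TRAV7-4 and TRAV7D-4 differ at 2 bases, TRAV7-3 and TRAV7D-3 at 11, and the pairs TRAV7-2 with TRAV7D-2 and TRAV7-6 with TRAV7N-6 at 0.

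Under 2 names there was a second recurrent V region. In TRAV7D-5, 24 contigs from 20 rearrangements had 1 form and 9 contigs from 8 rearrangements had another that differed at 1 base. The forms also began CDR3 differently, and both were present in libraries 2 and 3. Capitals mark the base that changes.
TRAV7D-5 form 1: tgtgcaAtg
TRAV7D-5 form 2: tgtgcaGtg
Of the 20 rearrangements of form 1, 15 began CAM, and all 8 of form 2 began CAV. The C57BL/6J gene has the second start. In TRAV7D-2, 4 contigs from 3 rearrangements of library 2 differed from the main form at 4 bases, and all 3 began CAV instead of CAA. A single TRAV7-1 contig in library 2 also differed from the main form, at 4 bases.

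TRAV7 was the second most used family in each of the 3 libraries. It supplied 143 of 1231 rearrangements in library 1 (11.6%, exact 95% interval 9.88 to 13.5%), 190 of 1700 in library 2 (11.2%, 9.72 to 12.8%) and 43 of 394 in library 3 (10.9%, 8.01 to 14.4%). The mean was 11.2% ± 0.355 (SD, n = 3), and the intervals overlapped. The intervals cover counting error only. By cells, TRAV7 chains were found in 11.2%, 12.6% and 11.3% of cells with a TRA. TRAV6 ranked above it, at 15.5% ± 0.399 of rearrangements (SD, n = 3). TRAV9, at 9.81% ± 0.957, and TRAV4, at 5.39% ± 0.648, were lower in each library.

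Within the family, 8 copy names carried nearly all rearrangements. TRAV7-4 had 20, 33 and 7 rearrangements in libraries 1, 2 and 3, the highest mean share at 15.9% ± 1.73 (SD, n = 3). TRAV7D-2 had 19, 19 and 9, or 14.7% ± 5.61, and TRAV7D-4 had 16, 29 and 7, or 14.2% ± 2.69. TRAV7-3 had 15, 29 and 5 rearrangements, or 12.5% ± 2.49, in 25, 62 and 5 cells. These shares lay within each other's library-to-library spread, so their order is not settled.

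TRAV7D-5 took 12.5% ± 1.29 of the family, TRAV7D-3 11.0% ± 3.88, TRAV7-1 9.05% ± 3.67 and TRAV7N-4 8.09% ± 3.28 (SD, n = 3). TRAV7-1 had 18 of 143 in library 1 (12.6%, exact 95% interval 7.63 to 19.2%) and 10 of 190 in library 2 (5.26%, 2.55 to 9.47%). As the names of library 1 were not checked against a V region, this contrast rests on the names given. The other names were rare. TRAV7-6 had 6 rearrangements, TRAV7N-6 had 3 and TRAV7-2 had 1. None of these names was seen in library 3. A floor of 3 counts there is a share of 6.98%, and the exact 95% interval of 0 of 43 reaches 8.22%. Names with D or N together made up 61.2% ± 1.43 of the family. As TRAV7-2 with TRAV7D-2, and TRAV7-6 with TRAV7N-6, shared a V region, these splits rest on the name given. The share of D and N names depends on them.

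**Figure D2:**
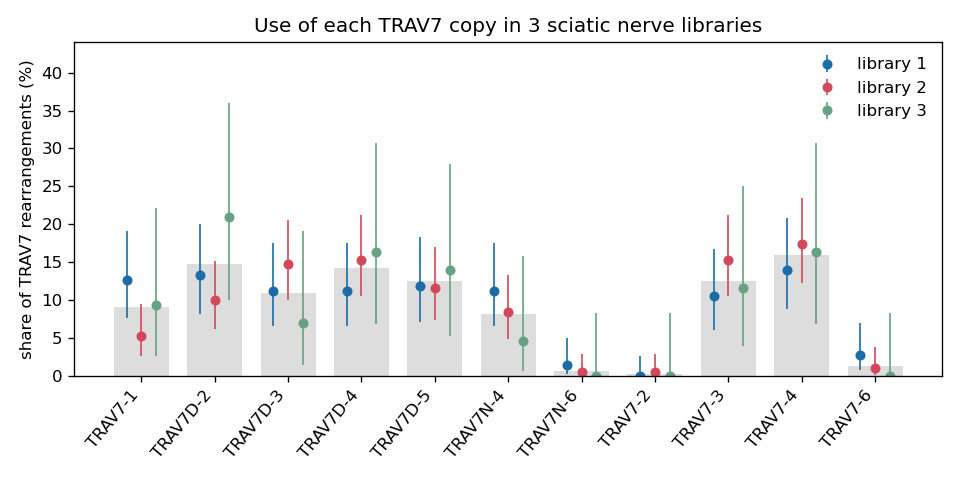
Share of TRAV7 rearrangements (%) for each copy, in reference order along chromosome 14, with grey bars for the mean of 3 libraries, points for single libraries and lines for exact 95% intervals. TRAV7-4 has the highest mean (15.9%), and TRAV7N-6, TRAV7-2 and TRAV7-6 stay near 0.

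TRAJ choice of the family was spread over the locus. The TRAJ genes with the highest mean share were TRAJ40, TRAJ12, TRAJ26, TRAJ31 and TRAJ30. TRAJ40 had 8 of 143, 10 of 190 and 3 of 43 rearrangements, a mean of 5.94% ± 0.909 against 4.92% ± 1.04 in other TRAV (SD, n = 3). The log2 difference was 0.30 (SE 0.27, edgeR adjusted p = 0.876). TRAJ12 rested on 1 library, with 2.10%, 3.16% and 11.6% of TRAV7 rearrangements, and its log2 difference of 0.67 (SE 0.65) had an edgeR adjusted p of 0.876.

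TRAJ26 had 2.80%, 5.26% and 6.98%, against 2.67%, 3.05% and 3.42% in other TRAV, and was thus higher in each library (log2 difference 0.61, SE 0.58, edgeR adjusted p = 0.876). TRAJ31 had 6.99%, 3.16% and 4.65%, on both sides of the values of other TRAV at 4.50%, 4.70% and 4.84%. TRAJ30 had 3.50%, 3.16% and 6.98%, with a mean of 2.85% in other TRAV. Their log2 differences were 0.05 (SE 0.30) and 0.42 (SE 0.64). Of 42 TRAJ genes tested with edgeR, 0 passed an adjusted p of 0.05 (0%), and 2 had an unadjusted p under 0.05. DESeq2 also called 0, with 1 under an unadjusted 0.05.

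The smallest p belonged to TRAJ58, which was not picked by rule and was singled out after its values were seen. TRAJ58 is the 4th TRAJ gene from the V side (chr14:54157280-54157342). It was absent from all 376 TRAV7 rearrangements and present in 23, 21 and 8 rearrangements of other TRAV, or 52 of 2949 (1.76%). Against a floor of 3 counts over the whole family, it was at least 2.21-fold lower, with an edgeR adjusted p of 0.119. TRAJ4 and TRAJ28, the 57th and 34th TRAJ genes from the V side, were also absent from the family. Other TRAV had 23 and 18 rearrangements with them (0.780% and 0.610%), below the floor of 0.798%, so a lower use is not shown. TRAJ21 moved the other way in libraries 1 and 2, at 6.29% and 5.26% against 2.57% and 1.72%, but had 0 of 43 in library 3 (edgeR adjusted p = 0.745).

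The position of the TRAJ gene was read as its rank among the 60 TRAJ genes, counted from the V side. Mean TRAJ rank in TRAV7 rearrangements was 29.9, 32.0 and 32.2 in libraries 1, 2 and 3. Other TRAV rearrangements averaged 28.0, 28.6 and 28.1. The family was therefore farther along the locus in 3 of 3 libraries, by 3.17 ± 1.12 ranks (SD, n = 3). The exact sign-flip permutation test over libraries gave p = 0.25, the smallest that 3 libraries allow. The first 20 TRAJ genes were used by 24.5%, 22.6% and 25.6% of TRAV7 rearrangements, against 36.9%, 34.2% and 33.0% of others. Ranks above 40 were used by 23.1%, 27.9% and 30.2% of TRAV7 rearrangements, against 22.7%, 21.5% and 20.8% of others. Counted by cells, the difference was 1.49 ranks and no longer had 1 direction in all libraries (exact sign-flip p = 0.5). With at least 3 UMIs per contig it was 5.29 ranks. Mean ranks in libraries 1, 2 and 3 were 29.4, 33.5 and 35.3 for TRAV4 and 31.3, 31.9 and 29.0 for TRAV9. TRAV6 had 29.8, 28.5 and 29.7. A mean rank above that of other TRAV was therefore not particular to TRAV7.

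One copy stood apart inside the family, which was noticed in the data and is given without a test. TRAV7N-4 had mean TRAJ ranks of 22.4, 23.0 and 17.5 in libraries 1, 2 and 3, from 16, 16 and 2 rearrangements. All other TRAV7 copies together had 30.9, 32.9 and 32.9. Its place in the NOD locus was not read here. Its ranks ran from 5 to 39 in library 1 and from 5 to 49 in library 2, so single rearrangements overlapped widely with those of other copies. Among copies with 10 or more rearrangements, TRAV7-3 had the highest mean rank, 35.5 ± 11.0 (SD over 49 rearrangements), and TRAV7D-2 had 30.9 ± 11.2 (SD over 47).

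**Figure D3:**
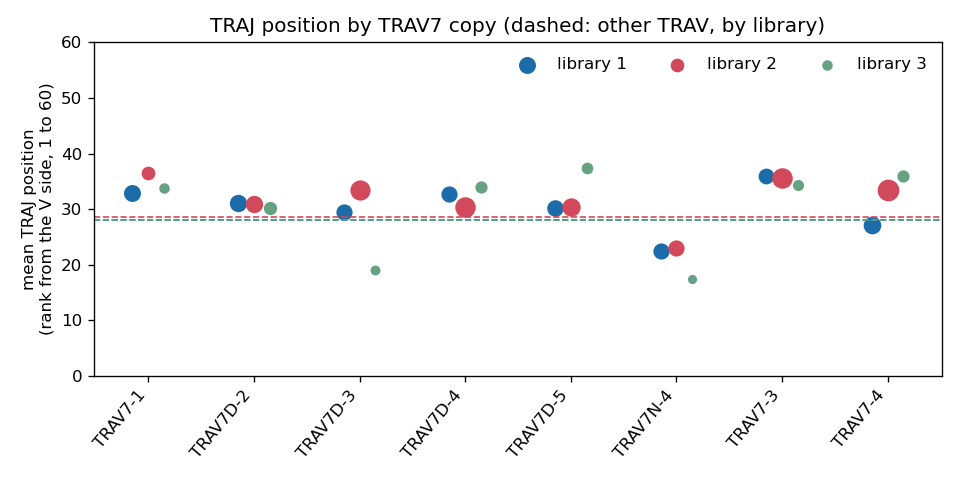
Mean TRAJ rank, from 1 at the V side to 60, of each TRAV7 copy with 10 or more rearrangements, by library, with point area growing with the number of rearrangements and dashed lines for other TRAV genes. TRAV7N-4 lies at 17.5 to 23.0, below the other TRAV lines near 28, and TRAV7-3 lies at 34.4 to 35.9.

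CDR3 length followed the copy more than the family. TRAV7 CDR3s averaged 13.5, 13.4 and 13.8 residues in the 3 libraries, and other TRAV 13.6, 13.6 and 13.6. The difference of -0.02 ± 0.25 residues changed sign between libraries (exact sign-flip p = 1.0). TRAV7-4, TRAV7D-4 and TRAV7N-4, whose V segment brings 4 more bases into CDR3, averaged 14.1, 13.9 and 14.2 residues. The other copies averaged 13.2, 13.0 and 13.6. The copies with the longer germline start thus had the longer mean in each library, and this grouping was made after the values were seen.

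The share of rearrangements that kept the whole C57BL/6J germline start differed between copies. TRAV7D-2 retained all 13 of its germline bases in 24 of 47 rearrangements (51.1%), against 10 of 49 for TRAV7-3 (20.4%), 9 of 47 for TRAV7D-3 (19.1%) and 6 of 32 for TRAV7-1 (18.8%). The longer starts were kept whole by 5 of 60 TRAV7-4 rearrangements (8.33%), 9 of 52 of TRAV7D-4 (17.3%) and 3 of 34 of TRAV7N-4 (8.82%). The C57BL/6J start of TRAV7D-5 was matched whole by 4 of 45 (8.89%). A CDR3 that begins CAM cannot match it, so this value does not measure how much of the start was kept. TRAV7D-2 CDR3s began CAA in 38 of 47 rearrangements, TRAV7-3 CDR3s began CAV in 41 of 49, TRAV7-4 CDR3s began CAA in 59 of 60, and TRAV7N-4 CDR3s began CAV in 33 of 34. The residues after the cysteine thus followed the copy name in most chains. TRAV7D-5 CDR3s began CAM in 23 of 45 rearrangements.

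Bases matching neither germline end numbered 4.77, 4.54 and 3.91 on average in TRAV7 CDR3s and 5.18, 5.52 and 4.99 in other TRAV. TRAV7 was lower in 3 of 3 libraries, by 0.82 ± 0.36 bases (SD, n = 3; exact sign-flip p = 0.25). That value depended on the C57BL/6J reference. With V ends read from the CDR3s themselves, the difference was -0.16 bases and not in 1 direction (exact sign-flip p = 0.5). With both V and J ends read that way it was 0.15 bases, again with no common sign (exact sign-flip p = 0.5), so no difference in non-germline bases is shown. With the C57BL/6J ends and counted by cells, the difference was -1.37 bases. Net charge differed by -0.03 ± 0.07 (exact sign-flip p = 1.0). Hydrophobicity of residues 6 and 7, on the Kyte-Doolittle scale, was lower by 0.18, 0.16 and 0.01 in TRAV7 (mean difference -0.12 ± 0.09, exact sign-flip p = 0.25), and the mean was -0.03 in cells with 1 TRA. Over the 7 traits compared by this test, the smallest Benjamini-Hochberg adjusted value of the exact sign-flip p was 0.438.

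TRBV partners were read from cells with 1 TRA and 1 TRB, which gave 106, 147 and 33 TRAV7 pairs. The most used partner names were TRBV12-2+TRBV13-2 (a joint name as deposited), TRBV5, TRBV13-1, TRBV13-3 and TRBV3. In the TRAV7D-4 TRAJ11 clone of library 1, the same β CDR3 stood under TRBV12-2+TRBV13-2 and under TRBV13-2. These names were thus not separate genes for that chain. TRBV13-2 alone was paired with 2.83%, 6.12% and 6.06% of TRAV7 chains. TRBV12-2+TRBV13-2 was paired with 10.4%, 13.6% and 9.09% of TRAV7 chains and with a mean of 10.7% ± 1.27 of others. TRBV5 had 16.0%, 8.84% and 6.06%, against a mean of 10.1% in others. TRBV13-1 had 8.49%, 5.44% and 15.2%, and TRBV13-3 had 10.4%, 9.52% and 6.06%. TRBV3 varied most, with 5 of 106, 2 of 147 and 6 of 33 pairs, and its log2 difference of 0.77 (SE 0.66) had an edgeR adjusted p of 0.809. The other 4 had log2 differences of 0.17 for TRBV12-2+TRBV13-2, 0.08 for TRBV5, -0.16 for TRBV13-1 and 0.36 for TRBV13-3. Of 20 TRBV genes tested with edgeR, 0 passed an adjusted p of 0.05 (0%), and 0 had an unadjusted p under 0.05. DESeq2 called 0 as well.

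Most TRAV7 rearrangements were seen in 1 cell. Those in more than 1 cell were 33 of 143 in library 1 (23.1%), 45 of 190 in library 2 (23.7%) and 5 of 43 in library 3 (11.6%). Other TRAV had 21.5%, 23.4% and 14.5%, and the difference of -0.34 ± 2.31 percentage points had no common sign (exact sign-flip p = 1.0). It changed sign at other settings. Expanded rearrangements held 115 of 225 TRAV7 chain detections in library 1, 211 of 356 in library 2 and 14 of 52 in library 3. By copy, 15 of 47 TRAV7D-2 rearrangements (31.9%), 10 of 49 of TRAV7-3 (20.4%) and 5 of 45 of TRAV7D-5 (11.1%) were expanded.

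The largest clones came from different copies in the 3 libraries. A clone here is 1 α rearrangement, whatever β chains its cells carry. Their α CDR3 sequences are shown because they are the largest of each library. Capitals mark bases matching neither the C57BL/6J V and J ends nor the ends shared by most CDR3s of the same V or J gene.
Library 1, TRAV7D-2 TRAJ47: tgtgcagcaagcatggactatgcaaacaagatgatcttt
Library 1, TRAV7-3 TRAJ32: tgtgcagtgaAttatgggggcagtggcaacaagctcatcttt
Library 1, TRAV7N-4 TRAJ52: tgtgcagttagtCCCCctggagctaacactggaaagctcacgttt
Library 2, TRAV7-3 TRAJ26: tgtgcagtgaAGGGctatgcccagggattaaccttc
Library 2, TRAV7-1 TRAJ15: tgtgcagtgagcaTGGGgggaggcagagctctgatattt
Library 2, TRAV7N-4 TRAJ48: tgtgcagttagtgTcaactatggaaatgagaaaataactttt
Library 3, TRAV7D-3 TRAJ26: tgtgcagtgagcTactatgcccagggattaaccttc
Library 3, TRAV7-1 TRAJ9: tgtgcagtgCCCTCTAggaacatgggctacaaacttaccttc
The TRAV7D-2 TRAJ47 clone had 21 cells, 1.06% of the TRA cells of library 1, and all 21 carried 1 TRBV3 chain. It was the only TRAV7 rearrangement above 20 cells, and all of its bases matched germline. The TRAV7-3 TRAJ32 and TRAV7N-4 TRAJ52 clones of library 1 had 8 cells each.

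In library 2 the TRAV7-3 TRAJ26 clone had 17 cells, 14 of them with 1 TRBV12-2+TRBV13-2 chain. TRAV7-1 TRAJ15 and TRAV7N-4 TRAJ48 had 14 cells each, and all 14 of the latter shared 1 TRBV13-1 chain. In TRAV7-1 TRAJ15 there were 4 distinct TRBs, and the commonest was in 7 of the 14 cells. In library 3 the TRAV7D-3 TRAJ26 and TRAV7-1 TRAJ9 clones had 4 cells each, with TRBV3 and TRBV19 partners. TRAV7D-2 TRAJ33, TRAV7D-2 TRAJ47 and TRAV7N-4 TRAJ49 followed with 2 cells each. In all 4 cells of TRAV7-1 TRAJ9 there was another productive TRA, so the α chain that made the clone's receptor is not settled there.

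**Figure D4:**
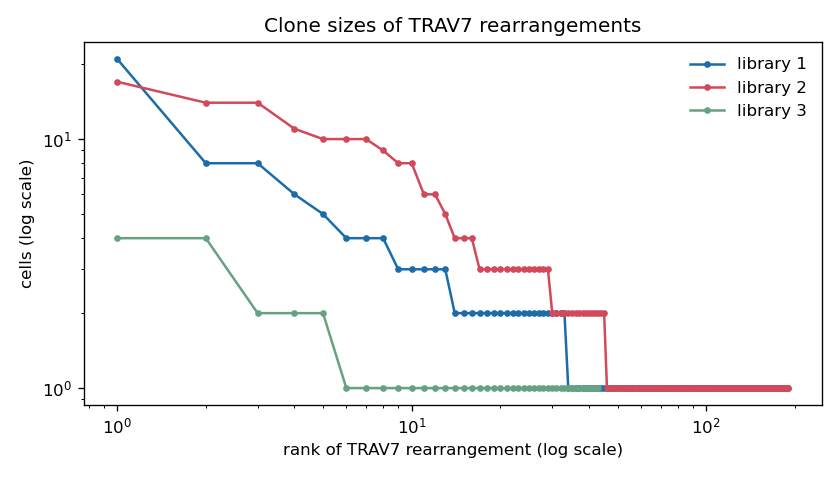
Cells per TRAV7 rearrangement against its rank within each library, both on log scales, 1 point for each rearrangement. The largest has 21 cells in library 1, 17 in library 2 and 4 in library 3, and most rearrangements have 1 cell.

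The same amino acid CDR3 with the same TRAJ recurred in more than 1 library for 13 of 353 distinct TRAV7 chains (3.68%, exact 95% interval 1.98 to 6.22%). Other TRAV had 141 of 2698 (5.23%, 4.42 to 6.13%), and the intervals overlapped. A chain of other TRAV could recur under any TRAV gene outside the family, so these shares are not like measures. Of the 13, 12 were in 2 libraries and 1 was in 3. The nucleotides differed in 10 of the 13, by 1 base in 8 of them. In 7 of the 13, the chain was found under a pair of copy names, 5 times as TRAV7-4 with TRAV7D-4.

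The chain in 3 libraries was the TRAV7D-2 TRAJ47 sequence printed above, in 21, 1 and 2 cells. Its nucleotides were identical throughout, with 13 bases from the V and 26 from the J germline end, and its partners were TRBV3, TRBV1 and TRBV16. The same α chain was thus found with a different β chain in each library. In library 2, however, this α chain rested on 1 UMI in its 1 cell. A second identical TRAV7D-2 chain, with TRAJ39, was in libraries 1 and 2 in 2 cells each and also had no TRBV gene in common.
TRAV7D-2 TRAJ39: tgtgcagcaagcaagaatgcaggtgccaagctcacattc

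Some other recurrent α chains came with like β chains. Among the 12 recurrent TRAV7 chains that had cells with a single TRB in 2 or more libraries, 7 were paired with the same TRBV gene in 2 libraries (58.3%, exact 95% interval 27.7 to 84.8%). In 4 of the 12, TRBV and TRBJ were both the same. Recurrent chains of other TRAV were paired with the same TRBV gene in 39 of 110 (35.5%, 26.6 to 45.1%) and with the same TRBV and TRBJ in 22 of 110. The intervals overlapped, so no difference of the TRAV7 family from other TRAV is shown. Chains of other TRAV could here, too, recur under different TRAV genes, so the groups are not matched. In cells with 1 TRA and 1 TRB, the same TRBV gene was found in 5 of 10 recurrent TRAV7 chains and in 34 of 88 of other TRAV. The pairs most alike are printed below and the others are described in words, with capitals for bases that differ between the versions of a chain.

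The TRAJ32 pair was the one with most cells. Its α chain, named TRAV7-3, was in 8 cells of library 1 and 10 of library 2. The β chain had TRBV29 and TRBJ1-3 in 7 and 10 cells.
Library 1 α: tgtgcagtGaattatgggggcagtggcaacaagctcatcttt
Library 2 α: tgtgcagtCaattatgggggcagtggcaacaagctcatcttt
Library 1 β: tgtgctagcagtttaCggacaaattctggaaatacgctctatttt
Library 2 β: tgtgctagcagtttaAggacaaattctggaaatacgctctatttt
Both chains differed at 1 base between the mice, and both encoded the same residues. In library 1 the same α junction was also named TRAV7-1 in 1 cell, with another β chain.

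A TRAJ40 chain under the names TRAV7-4 and TRAV7D-4 occurred as 3 rearrangements, in 1 and 4 cells of library 1 and 1 cell of library 2. Each was paired with a TRBV10 and TRBJ2-3 chain of 15 residues.
Library 1 TRAV7-4 α: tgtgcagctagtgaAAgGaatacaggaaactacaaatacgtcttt
Library 1 TRAV7D-4 α: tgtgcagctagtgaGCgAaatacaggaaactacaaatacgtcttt
Library 2 TRAV7D-4 α: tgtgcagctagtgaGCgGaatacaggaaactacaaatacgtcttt
Library 1 TRAV7-4 partner: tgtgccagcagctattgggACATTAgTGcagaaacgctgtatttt
Library 1 TRAV7D-4 partner: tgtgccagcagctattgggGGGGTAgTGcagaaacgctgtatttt
Library 2 TRAV7D-4 partner: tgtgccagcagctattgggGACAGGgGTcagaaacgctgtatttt
The β chains differed by 2 to 4 residues, all in the middle of CDR3.

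The TRAJ12 chain under TRAV7D-4 and TRAV7-4 was in 1 cell of library 2 and 1 of library 3, both with TRBV19 and TRBJ2-4.
Library 2 α: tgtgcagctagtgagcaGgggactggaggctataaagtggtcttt
Library 3 α: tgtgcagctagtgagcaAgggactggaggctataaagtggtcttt
Library 2 β: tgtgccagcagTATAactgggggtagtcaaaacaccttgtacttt
Library 3 β: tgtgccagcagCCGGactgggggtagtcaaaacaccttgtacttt
These β chains differed at 1 of 15 residues. A TRAJ15 chain had identical nucleotides in libraries 2 and 3, in 4 cells named TRAV7-4 and 1 cell named TRAV7D-4, and was paired with TRBV20 and TRBJ2-1 in both. All 4 cells of library 2 also held another productive TRA, so its pairing is not settled there.
TRAJ15 α: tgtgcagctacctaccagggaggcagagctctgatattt
Library 2 β: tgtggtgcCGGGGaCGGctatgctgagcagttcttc
Library 3 β: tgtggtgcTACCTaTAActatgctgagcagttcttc
Its β chains differed at 3 of 12 residues.

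A TRAJ17 chain of TRAV7D-5 was in 1 cell of library 1 and 1 of library 3, and its TRBV3 partner encoded the same residues in both. The cell of library 1 also held a TRBV10 chain and another productive TRA, so its pairing is not settled and this chain is not among the 12 above.
Library 1 α: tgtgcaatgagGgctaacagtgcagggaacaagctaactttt
Library 3 α: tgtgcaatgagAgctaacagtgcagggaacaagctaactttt
Library 1 β: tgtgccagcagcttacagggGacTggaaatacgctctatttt
Library 3 β: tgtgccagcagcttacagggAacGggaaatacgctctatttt
A TRAJ42 chain of TRAV7D-2, in 1 cell each of libraries 2 and 3, had TRBV13-3 in one and TRBV13-1 in the other. Their CDR3s differed at 1 of 13 residues.
Library 2 β: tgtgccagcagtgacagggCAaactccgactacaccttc
Library 3 β: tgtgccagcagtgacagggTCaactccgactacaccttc
A TRAV7D-3 TRAJ27 chain, in 2 cells of library 1 and 8 of library 2, was paired with TRBV2 in 1 and 3 of these cells. These TRBV2 chains differed at 6 of 16 residues. Both cells of library 1 held another productive TRA. The remaining chains paired with 1 TRBV gene in 2 libraries were TRAJ11, with TRBV12-2+TRBV13-2, and TRAJ27 of TRAV7D-2, with TRBV1. Their β chains were less alike: the TRAJ27 pair differed at 7 of 13 residues, and the TRAJ11 pair had 14 and 13 residues. The TRAJ27 chain under TRAV7-4 and TRAV7D-4 had TRBV17 in library 1 and TRBV13-3 in library 2. The TRAJ12 chain under TRAV7D-3 and TRAV7-3 also had no TRBV gene in common. Its partners were TRBV15 in 5 cells and TRBV13-1 in 1 cell of library 1, and TRBV12-2+TRBV13-2 in library 2. Many versions of the recurrent chains were in few cells, since 17 of 29 rested on 1 cell.

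**Figure D5:**
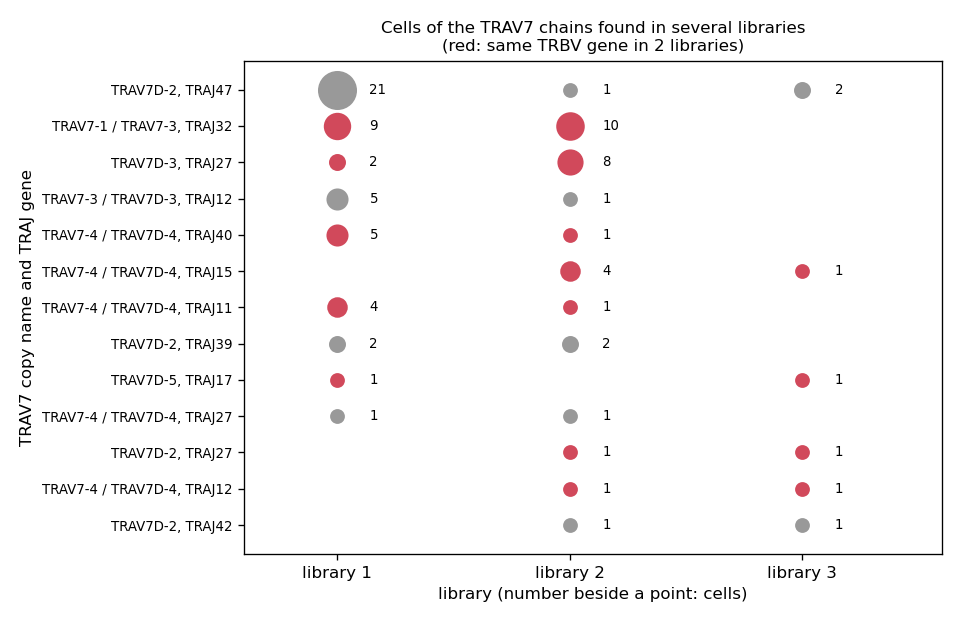
Cells per library, printed beside each point and shown by its area, for the 13 TRAV7 chains found in more than 1 library, by copy name and TRAJ gene. Red marks the 8 chains that had the same TRBV gene in 2 libraries when cells with several TRBs are included; TRAV7D-2 TRAJ47, in 21, 1 and 2 cells, is grey.

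Cells with several chains were kept, and no doublet caller was run. TRAV7 cells with more than 1 productive TRB numbered 16, 26 and 1 in libraries 1, 2 and 3, and 9, 14 and 0 of these also had a second TRA. The part of doublets in the values below was not tested. A second productive TRA was present in 42 of 222 TRAV7 cells in library 1 (18.9%), 72 of 355 in library 2 (20.3%) and 8 of 52 in library 3 (15.4%). Cells with any other TRAV had one in 10.6%, 10.3% and 4.80%, a difference of 9.64 ± 1.16 percentage points (SD, n = 3; exact sign-flip p = 0.25). A cell with a pair of chains has 2 ways to enter any single family, so this measure is raised by its construction for every family. TRAV9 cells, counted the same way, had 23.7%, 19.7% and 6.12%, TRAV6 cells 12.8%, 13.2% and 4.55%, and TRAV4 cells 13.6%, 13.4% and 3.23%. With every chain counted once, 20.0%, 20.5% and 15.4% of TRAV7 chains shared their cell with another TRA, against 17.5%, 16.6% and 7.46% of other chains. The difference was then 4.79 ± 2.82 percentage points (exact sign-flip p = 0.25). Both chains were TRAV7 in 3 cells of library 1 and 1 cell of library 2.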

How the data were processed

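T cell receptor libraries of CD45+ sciatic nerve cells from 3 samples (4 mice) were made by the authors with 10x Genomics 5′ V(D)J chemistry and assembled with Cell Ranger against mm10; the processing notes also name Seurat, and versions are not given there. The deposited tables hold 1 line per contig with UMI and read counts made by the authors. Contigs of called cells flagged productive were used, without a further UMI filter. No doublet caller was run, as only V(D)J contigs were used. The deposited clonotype and consensus tables were not used. The members and lists were chosen with earlier results of these data known.

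The TRAJ and TRBV tables were tested with edgeR 4.0.16 in R 4.3.3 (quasi-likelihood F test, a term for library, column totals as library sizes, genes with at least 10 in all, Benjamini-Hochberg over all genes tested). Standard errors are the log2 difference over the square root of F. DESeq2 1.42.0 was an alternative. The test was tried on simulated counts. Traits were averaged per library and compared by an exact two-sided sign-flip permutation test over 3 libraries. Intervals of shares are exact (Clopper-Pearson, 95%); where nothing was counted, the floor was 3 counts. V and J ends were matched to GRCm38 (GENCODE M21 genes, RefSeq sequence); 5 V names with a median match under 6 bases, TRAV7N-6 among them, were left out of the count of non-germline bases. Values were computed with pandas 2.3.3 and scipy 1.17.1 in Python 3.11.15. Named items were every TRAV7 copy, TRAJ and TRBV genes past an adjusted p of 0.05 or among the 5 highest mean shares, the 3 largest rearrangements per library with ties, and recurrent chains. Alternatives counted cells, asked for 3 UMIs per contig or 1 TRA per cell, dropped the V name from a rearrangement, left out each library, or changed the test. Printed sequences come from the deposited contigs or GRCm38.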

Additional observations from a re-analysis of the deposited data

Results flagged for a closer look

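Productive TRAV7 chains were also found on barcodes outside called cells, which no comparison above used. There were 439 such barcodes in library 1 (9.96% of those with a productive TRA), 125 in library 2 (16.4%) and 34 in library 3 (11.6%), with medians of 1, 2 and 1.5 UMIs per contig. In called cells, TRAV7 chains were found in 11.2%, 12.6% and 11.3% of those with a TRA. No control sample was measured, so the background level of such barcodes is not known.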

How the results depend on the processing

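No paired analysis was possible because only 1 group exists, with TRAV7 and other TRAV already compared within each library. Of 91 recomputed values of the comparisons, 77 were unmoved in sign and in call, or by less than 1 SD over libraries. Counts of recurrent chains were judged by fold instead, so 10 with at least 3 UMIs against 13 was taken as unmoved. Counts of TRAJ and TRBV genes called, all 0, are among the 77. The TRAV7 share of rearrangements was 10.4% with at least 3 UMIs per contig. The number of recurrent chains was 3 by nucleotides and 34 by amino acid CDR3 alone, with any TRAJ and any TRAV, and ran from 2 to 8 when each library was left out, lowest without replicate 2. The small expansion difference turned positive for over 2 cells (1.26 percentage points), over 5 cells (0.152) and at least 3 UMIs (3.80), and ran from -1.30 to 0.938 with a library left out. The CDR3 length difference ran from -0.165 to 0.0793 residues and the charge difference from -0.0564 to 0.00652 in the same way. The cause was not tested, beyond fewer libraries leaving fewer pairs to share. No TRAJ or TRBV gene passed under any setting, including TMM normalization, DESeq2, no filter on low counts and no library term. Log2 differences near 0 changed sign for single genes. For TRAJ31 it was -0.29 by cells, -0.26 with at least 3 UMIs, -0.34 with 1 TRA per cell, -0.19 with TMM and -0.070 with DESeq2, and -0.44 to 0.45 with a library left out. For TRBV13-1 it was 0.23 by cells, 0.13 with DESeq2 and -0.48 to 0.25 with a library left out. For TRBV5 it was -0.24 by cells, -0.012 with TMM and -0.22 to 0.26. For TRBV13-3 it was -0.010 by cells. For TRBV12-2+TRBV13-2 it was -0.048 with at least 3 UMIs and -0.0010 to 0.26. Cells are already the unit of the second TRA result, so that alternative was the result itself; added after seeing the data were chains and rearrangements as its unit (2.48 percentage points by rearrangement), the inferred V end, V and J ends both inferred (a difference in non-germline bases of 0.149), partners from cells with 1 TRA and 1 TRB, the merged TRBV name and leaving out shared barcodes (13 recurrent chains). Library 3, with 43 TRAV7 rearrangements, limits what could be seen of rare copies.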

Other observations

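Nonproductive TRA contigs of called cells, which encode no receptor chain, gave a view of TRAV7 use without a working α chain product. Among those with a readable junction, TRAV7 made up 16 of 192 distinct junctions in library 1 (8.33%, exact 95% interval 4.84 to 13.2%), 28 of 239 in library 2 (11.7%, 7.93 to 16.5%) and 4 of 66 in library 3 (6.06%, 1.68 to 14.8%). The intervals overlapped those of the productive rearrangements. Their mean TRAJ ranks were 32.8, 33.3 and 31.2 in TRAV7 junctions and 28.1, 30.2 and 29.3 in other TRAV, so TRAV7 was farther from the V side in each library here as well, with no test made.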
